A study of Mus musculus with 2 samples.

Results

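The genes described here encode the building blocks of the nuclear pore and the carriers that pass through it. They were chosen by symbol from protein-coding genes named Nup, Kpna, Ipo, Tnpo or Xpo followed by a number, with Kpnb1 and Xpot. The choice gave 42 of the 43629 genes in the count tables, 20 nucleoporin genes and 22 transport receptor genes. The choice left out pseudogenes and 1 gene whose symbol fits this pattern, which is not analysed here, and Nup62 found no row by its identifier and was not analysed here. Polyadenylated RNA was sequenced from E14 cells, a wild-type mouse embryonic stem cell line that the labels give as of 129/Ola background and blastocyst origin. The single group held 2 libraries, 1 with the age label P33 and 1 with P42, and the labels name no treatment. Nothing in the labels says whether they came from separate cultures, so the spread between them may be partly technical.

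The nuclear pore complex is the gate in the nuclear envelope through which proteins and RNA pass between nucleus and cytoplasm. Its scaffold is built from the Y complex and the inner ring, its channel is lined by nucleoporins rich in phenylalanine and glycine repeats, and a basket and filaments extend from its faces. Importins of the beta family bind cargo directly or through importin alpha adaptors, exportins carry cargo out, and the small GTPase Ran sets the direction. In stem cells the subtypes of importin alpha are known for changing during differentiation.

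Total counts were 40139219 for P33 and 39657578 for P42. All 8 markers of pluripotent stem cells were present, with summed levels of 5339 and 6526 CPM (counts scaled to a common library size) in P33 and P42. Of these 8 markers 6 were higher in P42 and 2 lower. Klf4 was at 143 CPM in P33 and 510 in P42, Sox2 at 303 and 619, and Pou5f1 at 803 and 503. Of the other cell types looked for, 8 fibroblast markers summed to 55.6 and 41.6 CPM, with Col3a1 at 1 and 0 counts. The 6 neural markers summed to 69.4 and 66.9 CPM. Of the 5 averaging 1 CPM or more, 4 were higher in P42 and Neurod1 was lower, at 13.5 and 1.99 CPM. The 6 primitive endoderm markers summed to 32.7 CPM in P33 and 107 CPM in P42, and none was at 0. All 6 were higher in P42, with log2 ratios of P42 over P33 from 1.37 to 2.11. Dab2 was the highest of them in level, at 16.8 and 63.0 CPM. In RNA from a whole culture fewer cells of a type and less RNA per cell cannot be told apart, and the part of these markers in the differences between the libraries was not tested.

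Nearly every gene of the pore and of transport was expressed, and their median level was above that of other expressed genes. Of the 42 genes 41 reached 1 CPM in both libraries, where 54.0% of all protein-coding genes did. The exception was Kpna7, an importin alpha known from oocytes and early embryos, with 14 counts in P33 and 8 in P42. Together the 42 genes took 1.23% of all counts in P33 (1.229 to 1.236, exact 95% binomial interval) and 1.20% in P42 (1.194 to 1.200). Binomial intervals and the counting intervals given later cover counting error only, and PCR copies are not independent molecules. To compare genes, levels were divided by the length of the merged exons, as CPM per kilobase (RPKM). The median over the 42 genes was 30.0 RPKM, and 14.3 RPKM over the 7212 genes that averaged 20 CPM or more.

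**Figure D1:**
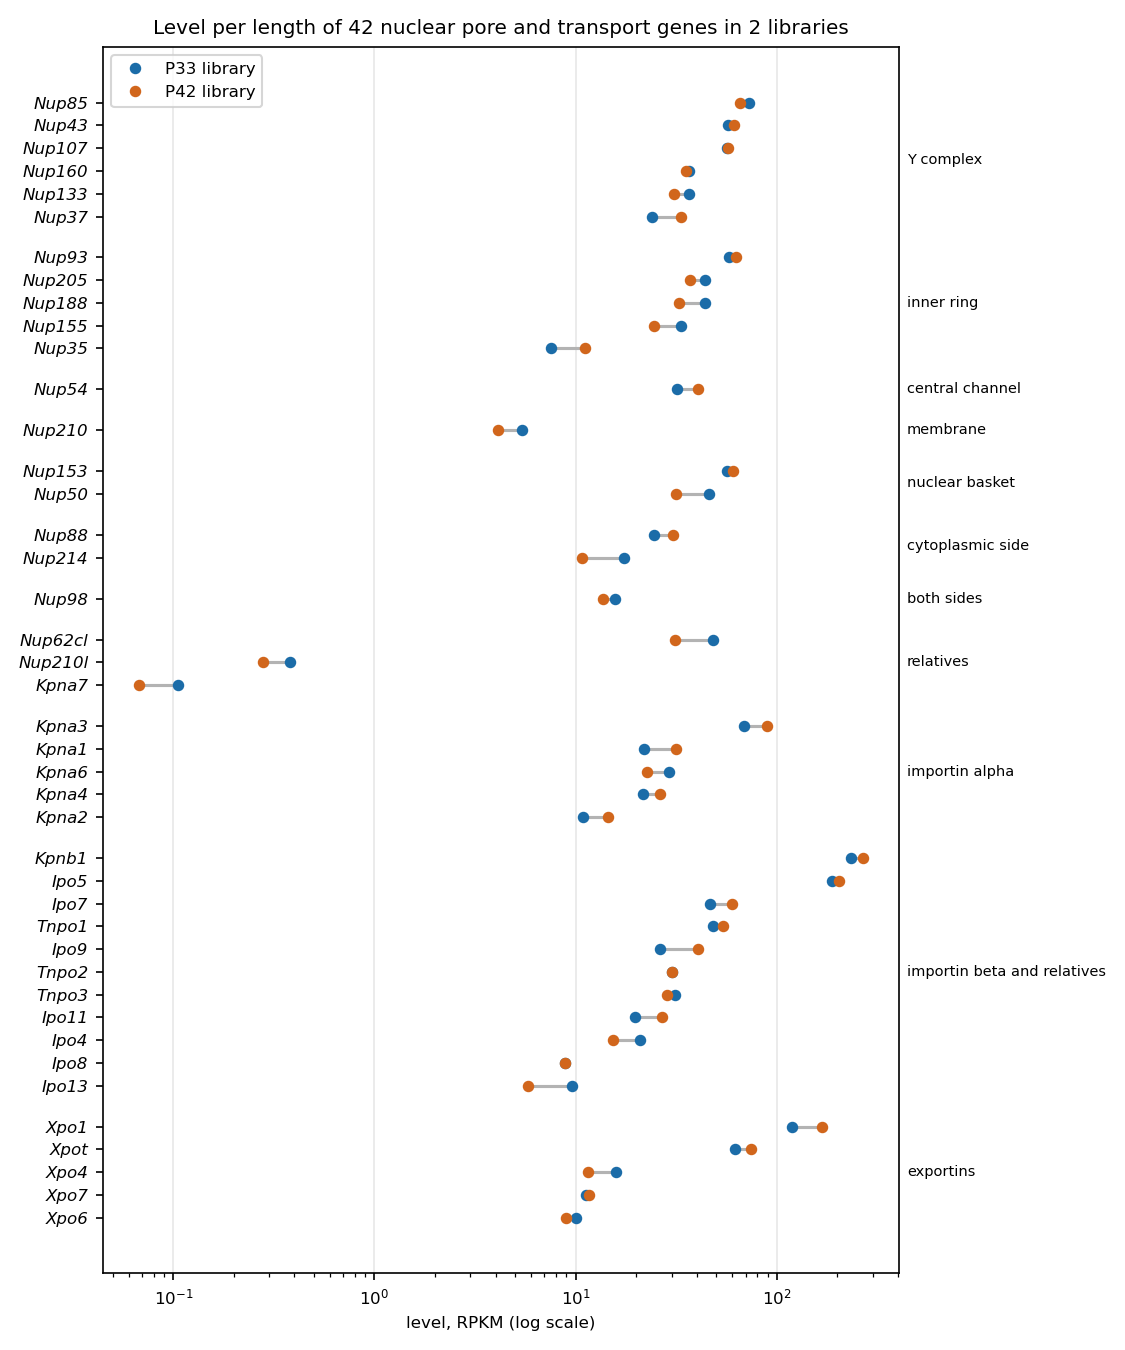
Level of each of the 42 genes in RPKM on a log axis, with 1 point for the P33 library and 1 for the P42 library, grouped by role. Kpnb1, Ipo5 and Xpo1 lie above 100 RPKM in both libraries, and Nup210l and Kpna7 lie below 1.

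General import and export carriers stood highest. Kpnb1, which encodes importin beta 1, the carrier of classical import, was at 234 RPKM in P33 and 268 RPKM in P42. Ipo5, an importin known for carrying ribosomal proteins and histones, was at 188 and 204 RPKM. Xpo1, the exportin of leucine-rich export signals, was at 119 and 168 RPKM. The ranges of these 3 genes over the 2 libraries did not overlap. With length taken from the longest transcript the means kept their order, but Kpnb1 and Ipo5 then overlapped. These 3 genes held 46.0% of all receptor counts in P33 and 47.4% in P42.

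Other receptors of the importin beta family covered a wide span. Ipo7 was at 46.7 RPKM in P33 and 59.6 in P42, and Tnpo1, the carrier of hnRNP proteins, at 47.9 and 54.1. These 2 overlapped by merged exons, but with the longest transcript Ipo7, at 109.5 and 139.8 RPKM, lay above Tnpo1, at 63.6 and 71.7. Ipo9 lay at 26.3 and 40.8 RPKM, a range that took in Tnpo2 at 30.2 in both libraries and Tnpo3, an importin of SR splicing factors, at 31.0 and 28.6. Ipo11 followed at 19.8 and 26.9 RPKM and Ipo4, which overlapped it, at 20.8 and 15.3. The lowest were Ipo8 at 8.83 and 8.90 RPKM and Ipo13, which can carry cargo both ways, at 9.59 and 5.83. The place of Ipo8 depends on its length, since with the longest transcript its mean was 23.1 RPKM in place of 8.87. Tnpo3 moved further, from a mean of 29.8 RPKM to 91.9.

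Exportins formed a high and a low set. After Xpo1, Xpot, which exports transfer RNA, was at 61.8 RPKM in P33 and 74.1 in P42. Xpo4 stood at 15.8 and 11.5 RPKM, Xpo7 at 11.3 and 11.7, and Xpo6, the exportin of actin, at 10.04 and 8.98. Xpo4 and Xpo7 overlapped, and with the longest transcript Xpo6, at 21.9 RPKM, lay above both.

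Among the importin alpha adaptors Kpna3 was highest, at 68.8 RPKM in P33 and 89.8 in P42, or 45.2% and 48.6% of their summed RPKM. These shares rest on merged exons, and the sum takes in the listed value of Kpna2, which is uncertain. Kpna1 at 22.0 and 31.5 RPKM, Kpna6 at 29.0 and 22.6 and Kpna4 at 21.6 and 26.4 overlapped each other by merged exons. With the longest transcript Kpna1, at 37.0 and 53.1 RPKM, lay above Kpna6, at 34.2 and 26.6, and Kpna4, at 21.9 and 26.7. Kpna2, the adaptor that imports Oct4 in stem cells, was listed lowest, at 10.8 and 14.4 RPKM. That value is not a measure of Kpna2 messenger RNA, because the gene has near-identical copies.

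A search of the annotated transcripts found copies of at least 95% identity over at least 500 bases, outside the gene itself, for 6 of the 42 genes. For Kpna2 there were 4. The closest is Gm10184, annotated as protein-coding on chromosome 17 (89908462 to 89910449, mm10), which differed from the Kpna2 transcript at 2 of 1968 aligned bases, both in the coding sequence. The first is shown within 81 coding bases, with the differing base in capitals, as A696G counted from the first coding base of Kpna2:
Kpna2: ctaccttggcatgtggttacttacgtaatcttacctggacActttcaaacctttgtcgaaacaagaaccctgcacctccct
Gm10184: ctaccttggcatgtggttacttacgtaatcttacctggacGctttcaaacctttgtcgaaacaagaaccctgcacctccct
The longest stretch without a difference ran for 1101 bases, and a read that falls inside such a stretch fits both genes. Whether those reads were dropped or shared is not given in the sources used here. Kpna2 held 1310 counts in P33 and 1567 in P42, and Gm10184 held 2091 and 1618. The copies together took 62.6% of the summed counts in P33 and 52.4% in P42. Kpna2 alone had a log2 ratio of P42 over P33 of 0.42 (0.31 to 0.52, 95% counting interval), the copies one of −0.19 (−0.28 to −0.10), and the sum one of 0.07 (−0.00 to 0.14).

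The inner ring gene Nup35 showed the same problem. Its copy Gm4353 on chromosome 7 (116082863 to 116084635), annotated as protein-coding, differed at 6 of 1547 aligned bases. The 1 difference found inside the coding sequence, A390G from the first coding base of Nup35, is shown in capitals:
Nup35: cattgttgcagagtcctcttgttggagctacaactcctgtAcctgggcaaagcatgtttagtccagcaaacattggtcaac
Gm4353: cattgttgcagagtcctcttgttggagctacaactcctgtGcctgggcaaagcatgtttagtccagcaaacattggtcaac
Nup35 held 1064 counts in P33 and 1407 in P42, and Gm4353 held 1114 and 1286, or 51.1% and 47.8% of the sum. Here gene and sum pointed the same way, with log2 ratios of 0.56 and 0.46. The copies of Nup54, Tnpo1 and Xpot held between 3.31% and 10.3% of the summed counts, and for the Xpo4 copy, which covers 6.64% of the transcript, no counts were matched. The reference genome is of another mouse strain than E14, so single differences may not hold in these cells.

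**Figure D2:**
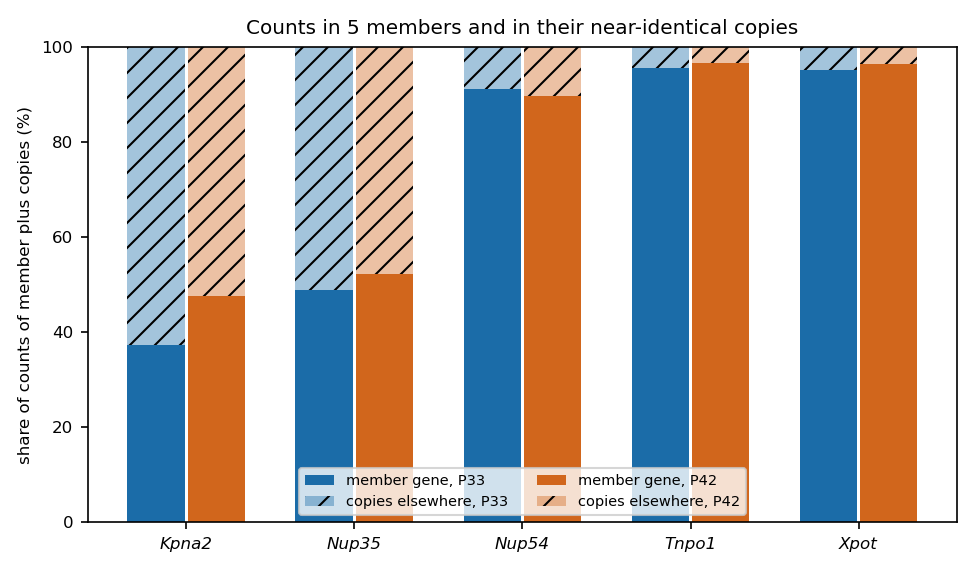
Share of the summed counts, in percent, held by 5 genes (solid) and by their near-identical copies (hatched) in the P33 and P42 libraries. Copies hold 62.6% and 52.4% for Kpna2, near an even split for Nup35, and at most 10.3% for Nup54, Tnpo1 and Xpot.

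Scaffold subunits of the pore, which are present in fixed proportions in the complex, had transcript levels of the same order. In the Y complex, the outer ring of the scaffold, Nup85 was at 72.7 RPKM in P33 and 65.3 in P42, Nup43 at 57.2 and 61.5 and Nup107 at 56.6 and 57.0. Below these lay Nup160 at 36.7 and 35.2 RPKM, Nup133 at 36.5 and 31.0 and Nup37 at 24.0 and 33.6. The place of Nup37 rests on the length used, since with the longest transcript it was at 55.2 and 77.2 RPKM, a range that takes in Nup107. In the inner ring Nup93, which anchors other subunits, was at 58.0 and 62.4 RPKM, above Nup205 at 44.1 and 37.1, Nup188 at 43.8 and 32.5 and Nup155 at 33.3 and 24.6. Nup35 was listed at 7.499 and 11.1 RPKM. Over 14 scaffold genes, with Seh1l, Sec13 and Ahctf1 added, the highest mean was 7.43 times the lowest, and 2.396 times without Nup35.

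Other parts of the pore were more uneven. The basket genes Nup153 and Nup50 were at 56.5 and 45.9 RPKM in P33 and at 60.5 and 31.4 in P42. Nup54 of the central channel was at 31.98 and 40.5 RPKM. On the cytoplasmic side Nup88 was at 24.6 and 30.4 RPKM, or 66.7 and 82.6 with the longest transcript, and Nup214 at 17.4 and 10.7, and Nup98, found on both faces, was at 15.6 and 13.7. The membrane nucleoporin gene Nup210, known for rising when stem cells become neural or muscle cells, was the lowest of the core nucleoporins at 5.39 and 4.12 RPKM. Its relative Nup210l, known from testis, had 92 and 60 counts, or 0.382 and 0.278 RPKM. Nup62cl, an X-linked gene named for its likeness to the C-terminal part of Nup62, was at 48.2 and 31.0 RPKM, within the range of the scaffold genes.

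RefSeq promoter windows (GRCm38.p6), from 250 bases before to 50 after each start, were matched for 33 of the 42 genes. Most were rich in CpG: 31 of 33 genes had a window with at least 15 CpG, against 75.8% of the 9884 genes that averaged 1 CPM or more and 37.1% of all 27025 genes with a window. The exceptions were Kpna7 with 4 CpG and the Y complex gene Nup160 with 6, and Nup160 was expressed at 35.9 RPKM all the same. For Kpna7 the RefSeq start lies inside the longer annotated gene. Other genes of low level were not poor in CpG. Ipo8, Ipo13 and Nup210, at means of 8.87, 7.71 and 4.76 RPKM, had 17, 35 and 41. Kpnb1, the highest, had 35. For Kpnb1, Xpo1, Nup62cl and Kpna7 the 250 bases before the start are given 5′ to 3′ along the gene, with each CpG in capitals. They lie at chr11:97187893-97188142 (minus strand) for Kpnb1, chr11:23255791-23256040 (plus strand) for Xpo1, chrX:140062569-140062818 (minus strand) for Nup62cl and chr5:145009637-145009886 (minus strand) for Kpna7.
Kpnb1: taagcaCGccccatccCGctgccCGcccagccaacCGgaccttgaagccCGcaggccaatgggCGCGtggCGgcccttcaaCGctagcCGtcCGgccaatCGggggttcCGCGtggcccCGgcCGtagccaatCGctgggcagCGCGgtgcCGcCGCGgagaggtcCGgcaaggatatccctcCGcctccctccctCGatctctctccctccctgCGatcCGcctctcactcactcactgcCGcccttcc
Xpo1: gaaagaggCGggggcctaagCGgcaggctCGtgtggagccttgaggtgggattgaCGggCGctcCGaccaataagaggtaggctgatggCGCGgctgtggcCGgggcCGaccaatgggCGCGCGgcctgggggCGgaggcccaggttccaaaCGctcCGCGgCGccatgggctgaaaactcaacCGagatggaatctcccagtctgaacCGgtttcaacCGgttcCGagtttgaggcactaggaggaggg
Nup62cl: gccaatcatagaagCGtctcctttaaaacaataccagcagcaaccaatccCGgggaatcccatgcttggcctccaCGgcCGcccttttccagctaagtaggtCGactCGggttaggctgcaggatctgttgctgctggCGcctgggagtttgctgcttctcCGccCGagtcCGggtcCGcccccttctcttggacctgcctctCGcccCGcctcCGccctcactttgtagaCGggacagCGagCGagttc
Kpna7: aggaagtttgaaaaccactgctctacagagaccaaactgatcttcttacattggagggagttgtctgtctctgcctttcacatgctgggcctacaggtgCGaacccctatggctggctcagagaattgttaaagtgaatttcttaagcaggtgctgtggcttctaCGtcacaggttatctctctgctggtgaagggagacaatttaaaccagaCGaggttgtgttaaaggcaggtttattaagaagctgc
In these stretches there are 28 CpG for Kpnb1, 22 for Xpo1, 17 for Nup62cl and 3 for Kpna7.

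The second question was how far the 2 libraries differed for these genes. With a single library per label there is no replicate check and no test is given. Genes averaging 1 CPM or more were called higher or lower in P42 where the difference was 2-fold or more and its 95% counting interval left out equality. None of the 41 genes with that mean was counted in either direction, where 14.6% of all 13737 genes were, 5.07% higher and 9.54% lower. The background depends on level: among the 7212 genes averaging 20 CPM or more, which hold 40 of the 42, the share was 7.04%, with 3.26% higher and 3.79% lower. At 1.5-fold Ipo9 was counted higher and Ipo13, Nup214 and Nup62cl lower. That made 1 and 3 of 41 genes, against 16.1% and 18.9% of all genes (35.0% in either direction), and against 16.2% and 10.5% of those with 20 CPM or more (26.6% in either direction). The median log2 ratio was 0.01 over the 41 genes and 0.04 over all genes, with 22 of 41 genes above 0 where 52.7% of all genes were. The median size of the ratio regardless of sign was 0.34 against 0.41. At 20 CPM or more the medians regardless of sign were 0.33 over 40 genes and 0.35 over all 7212. The signed medians there were 0.03 and 0.13, with 22 of 40 and 4440 of 7212 ratios above 0.

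**Figure D3:**
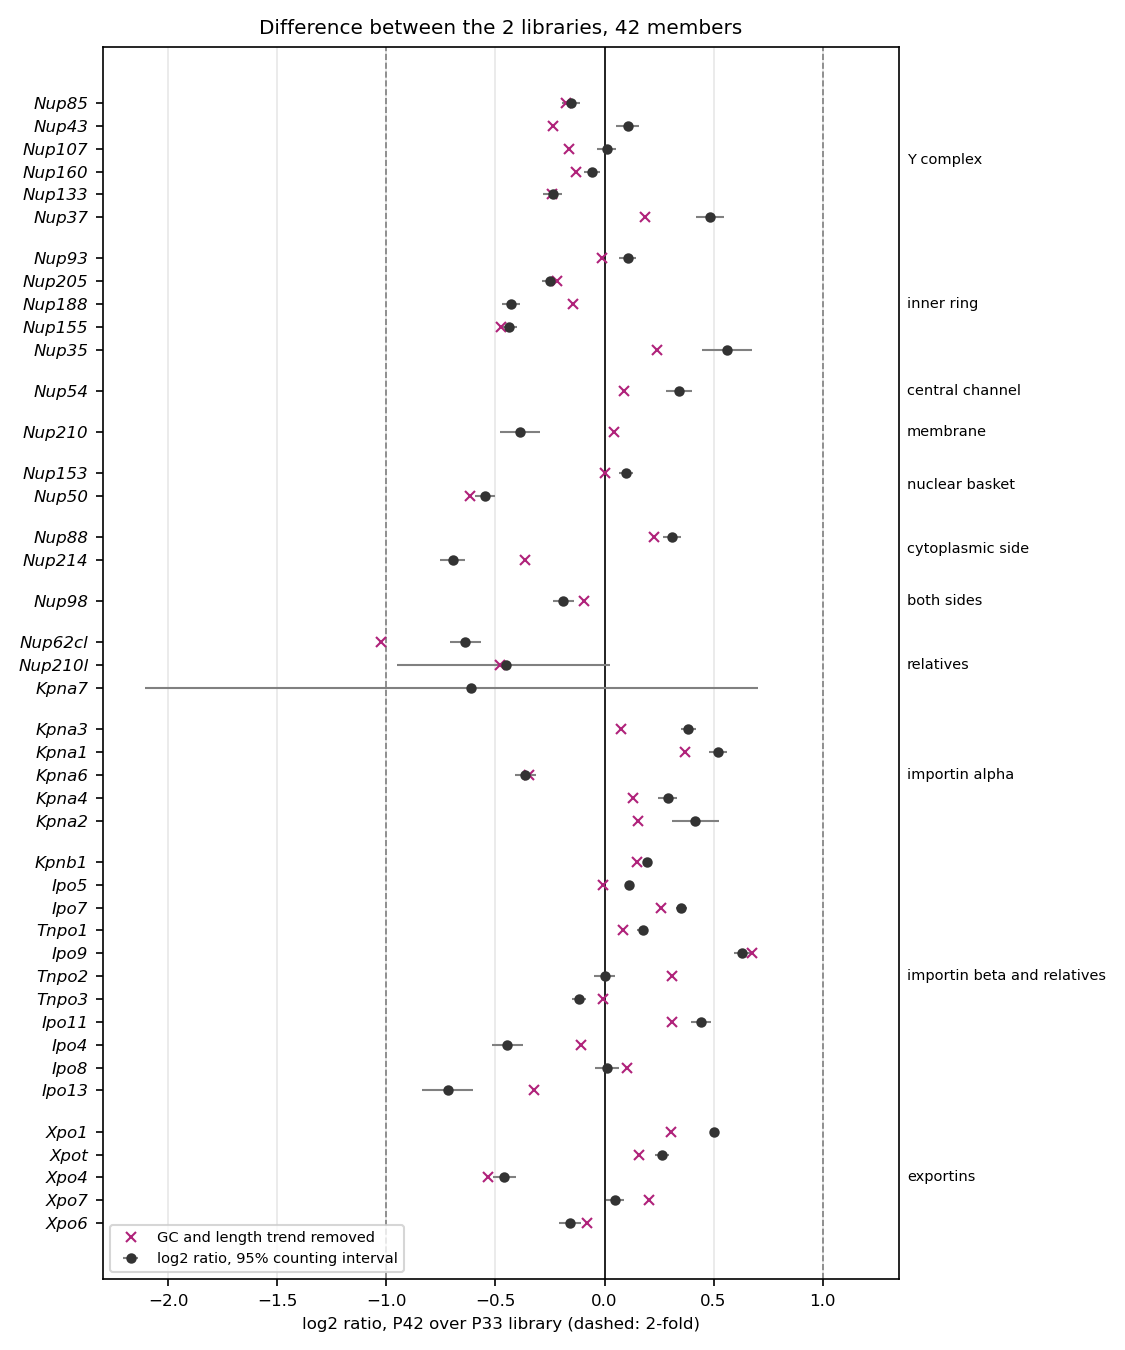
Log2 ratio of P42 over P33 for each of the 42 genes, with its 95% counting interval, and the ratio with the trend on GC content and length removed (crosses). No gene passes the dashed 2-fold lines as measured, and Nup62cl passes the lower line once the trend is removed.

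The differences were thus near in size to those of all genes with 20 CPM or more, at medians regardless of sign of 0.33 and 0.35. Every ratio that follows is the log2 of P42 over P33. Of 20 nucleoporin genes 12 were lower in P42, with a median log2 ratio of −0.17, and of 21 receptor genes 14 were higher, with a median of 0.17. Among all 7212 genes with 20 CPM or more 2772 were lower and 4440 higher. In counts, nucleoporins went from 0.428% of the P33 library to 0.355% of P42, and receptors from 0.804% to 0.842%. Scaled by total counts, which lowers every log2 ratio by 0.14, 16 of 20 nucleoporins were lower and 11 of 21 receptors higher. Of all 13737 genes 7871 were lower and 5866 higher, and of those with 20 CPM or more 3655 were lower and 3557 higher. After removal of the GC and length trend the counts were 14 of 20 lower and 14 of 21 higher. Of 13668 genes 6373 were then lower and 7295 higher, and of those with 20 CPM or more 2839 were lower and 4358 higher. The direction of the 7 genes Nup43, Nup107, Nup93, Nup153, Ipo5, Ipo8 and Xpo7 turned with total counts, and that of Nup43, Nup107, Nup93, Nup210, Ipo5 and Tnpo2 with the trend removed.

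Of the 5 inner ring genes 3 were lower in P42 and 2 higher, and 4 were lower with total counts and with the trend removed. Nup155 measured 397 CPM in P33 against 294 in P42, which gave −0.44 on the log2 scale (95% counting interval −0.47 to −0.40), and Nup188 measured 273 against 203 CPM, with −0.43 (−0.47 to −0.39). Nup205 had a ratio of −0.25. Nup93 had one of 0.11, and its sign turned under both alternatives. Nup35 had one of 0.56, but its count is uncertain because of its copy. Among the 6 Y complex genes with a Nup symbol the ratios ran from −0.24 for Nup133 to 0.48 for Nup37, with Nup107 at 0.01, 218 CPM in P33 and 219 in P42. The ratio of Nup160 was −0.06. Among the Y complex genes with other names, Ahctf1 had a ratio of 0.59, Seh1l one of 0.06 and Sec13 one of −0.19.

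At the periphery Nup214, which anchors export factors on the cytoplasmic filaments, measured 168 CPM in P33 against 103 in P42, log2 ratio −0.70 (−0.75 to −0.64). Its partner Nup88 differed the other way, with a ratio of 0.31 (0.27 to 0.35). In the basket Nup50 measured 225 against 154 CPM, log2 ratio −0.55 (−0.60 to −0.50), while Nup153 measured 396 against 424 CPM, log2 ratio 0.10 (0.07 to 0.13). Nup98 had a ratio of −0.19, Nup210 one of −0.39 and Nup54 one of 0.34. Nup62cl measured 108 CPM in P33 against 69.3 in P42, log2 ratio −0.64 (−0.71 to −0.57), and came to −1.03 with the trend removed, past 2-fold. For Nup210l the interval of −0.95 to 0.03 included equality, as did that of Kpna7, −2.11 to 0.70.

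Among importin alpha genes, leaving out Kpna7, 4 of 5 were higher in P42, beside 52.7% of all genes and 4440 of 7212 with 20 CPM or more. They include Kpna2, at 0.42 alone and 0.07 summed with its copies. Kpna1 measured 186 CPM in P33 against 268 in P42, log2 ratio 0.52 (0.48 to 0.56), Kpna3 at 296 against 386 CPM, log2 ratio 0.38 (0.35 to 0.42), and Kpna4 at 0.29. Kpna6, which belongs to the same subfamily as Kpna1, was lower, at 195 against 152 CPM, log2 ratio −0.36 (−0.41 to −0.31). The direction of these 5 genes was the same with total counts, with DESeq2 size factors and after removal of the GC and length trend, though the interval for Kpna2 summed with its copies includes equality. The size was not the same: with the trend removed Kpna3 came to 0.08, Kpna4 to 0.13 and Kpna2 to 0.15.

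Among the importin beta relatives Ipo9 had the highest ratio of all 42 genes, at 216 CPM in P33 and 336 in P42, log2 ratio 0.63 (0.59 to 0.67). Ipo13 had the lowest, at 40.4 and 24.5 CPM, log2 ratio −0.72 (−0.84 to −0.60). Ipo11 at 0.44 and Ipo7 at 0.35 were higher, and Ipo4 was lower at −0.45. Ipo4 shares 55.3% of its exon length with another annotated gene on the same strand, so its count is uncertain. The main carrier Kpnb1 had a ratio of 0.20 (0.18 to 0.21), Tnpo1 one of 0.17, Ipo5 one of 0.11 and Tnpo3 one of −0.12. Tnpo2 was at 189.7 CPM in each library with an interval of −0.05 to 0.05, but its ratio was −0.14 with total counts and 0.31 with the trend removed. Ipo8 had an interval of −0.04 to 0.06, and its ratio was −0.13 and 0.10 under these 2 alternatives. Whether either gene differed thus depends on the scaling. Opposite-strand genes overlap 10.6% of the Tnpo2 exons and 10.4% of those of Nup133, and the strand setting of the counting is not given.

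Exportins differed in both directions. Xpo1 measured 852 CPM in P33 against 1206 in P42, log2 ratio 0.50 (0.48 to 0.52), and Xpot at 373 against 447 CPM, log2 ratio 0.26 (0.23 to 0.29). Xpo4 measured 169.6 against 123 CPM, log2 ratio −0.46 (−0.51 to −0.41), Xpo6 had a ratio of −0.16 and Xpo7 one of 0.05. With the trend removed Xpo1 came to 0.31, Xpot to 0.16 and Xpo7 to 0.20.

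The ratio varied with base composition. Across the 41 genes, which share both libraries and are not independent replicates, Pearson's r between log2 ratio and transcript GC content was −0.55 and Spearman's rho −0.51. Across 13668 genes r was −0.32 and rho −0.39. The 10 genes of lowest GC content, from 39.6% to 42.8%, had a median ratio of 0.32 with 7 above 0, among them Kpna3, Xpo1 and Ipo7. The 10 of highest GC content, from 49.0% to 57.5%, had a median of −0.41 with Ipo9 alone above 0. With the trend of all genes removed, Ipo13 was at −0.32, Nup214 at −0.36 and Nup188 at −0.15, while Ipo9 stayed at 0.68 and Nup50 at −0.62.

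**Figure D4:**
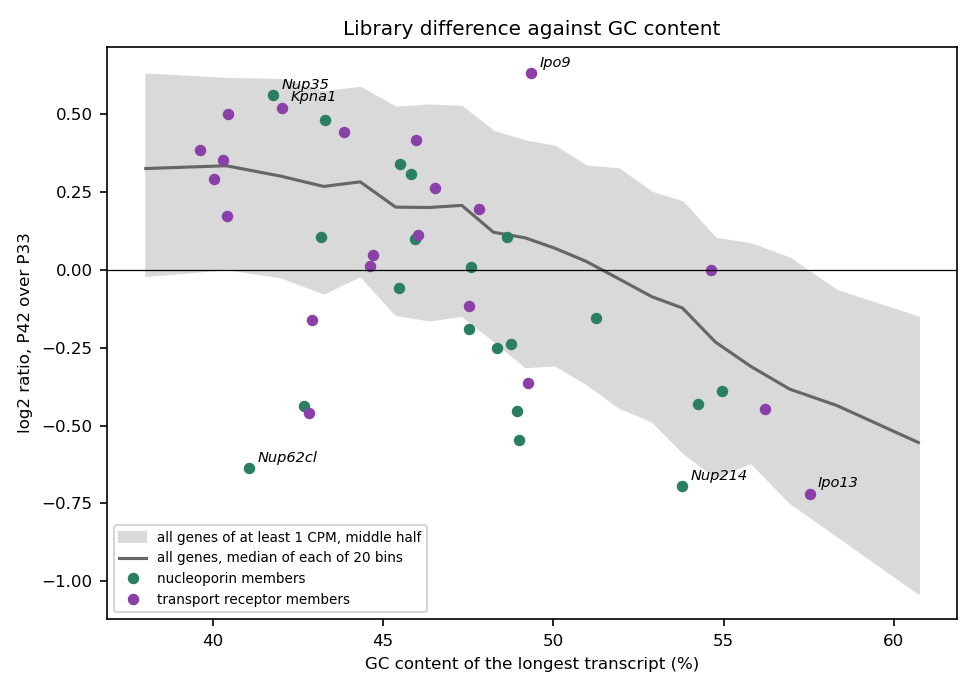
Log2 ratio of P42 over P33 against GC content in percent for the 41 genes averaging 1 CPM or more, over the median (line) and interquartile range (grey band) of all genes in 20 bins of GC content. Pearson's r is −0.48 over the 20 nucleoporins and −0.58 over the 21 receptors, and Ipo9, at 0.63, is the 1 gene above 0 among the 10 of highest GC content.

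Position on the chromosomes went with some of these values too. Ipo9 lies on chromosome 1, where the median ratio over 638 genes averaging 5 CPM or more was 0.66. Nup155 and Nup50 lie on chromosome 15, where the median over 428 genes was −0.57. Nup62cl, at −0.64, lay below the median of 0.18 over 379 X-linked genes, of which 134 were below 0 and 41 lower by 1.5-fold or more. The part of GC content and of chromosome in the differences was not tested.

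Other genes of nuclear transport were taken from 5 lists with 60 genes, and all 60 were detected in both libraries. Of these 2 were counted higher and 2 lower at 2-fold, beside 5.07% and 9.54% of all genes, and 3.26% and 3.79% of those with 20 CPM or more. Above 0 were 40 of 60 ratios, beside 52.7% of all genes and 4440 of 7212 with 20 CPM or more. With total counts 33 of 60 were above 0, beside 5866 of 13737 and 3557 of those 7212. Nucleoporins with other names had a median ratio of 0.06 over 12 genes, led in level by the basket gene Tpr at 65.1 RPKM in P33 and 104 in P42, a ratio of 0.67, and the Y complex gene Seh1l at 63.6 and 66.3, a ratio of 0.06. The Ran cycle had a median of 0.32 over 7 genes. Ran itself was at 174 and 239.8 RPKM, a ratio of 0.46, and its cofactor gene Ranbp1 at 170.3 and 239 RPKM, a ratio of 0.49. Others of the list were lower in P42: Rangap1, which encodes the activator of the Ran GTPase, was at 67.8 and 39.3 RPKM, a ratio of −0.78, and Ranbp3, a cofactor of export by Xpo1, had a ratio of −0.92. Nutf2, which returns Ran to the nucleus, had the highest ratio at 0.83. These 3 genes were named after their values were seen. Among other receptors and adaptors, with a median of 0.41 over 7 genes, Cse1l, the exportin that returns importin alpha to the cytoplasm, was at 98.9 and 148 RPKM, a ratio of 0.58. Nmd3, an export adaptor of the large ribosomal subunit, was at 19.6 and 31.2 RPKM, a ratio of 0.67.

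The genes of messenger RNA export had a median of 0.23 over 20 genes. The helicase gene Ddx39b, highest of the list, was at 70.5 and 70.6 RPKM, a ratio of 0.00, and Chtop at 42.2 and 60.9 RPKM, a ratio of 0.53. Mcm3ap, which encodes the scaffold protein of an export complex at the pore, was counted lower, at 243 CPM in P33 and 103 in P42, a ratio of −1.25 (−1.30 to −1.19), and came to −0.99 with the trend removed. Nuclear envelope and lamina genes had a median of 0.07 over 14 genes. The lamin gene Lmnb1 was the most abundant at 173 and 175 RPKM, a ratio of 0.02, with the chromatin-bridging gene Banf1 at 119 and 129 RPKM. Lmna, the lamin of differentiated cells, was counted lower, at 22.6 against 9.16 CPM, log2 ratio −1.30 (−1.48 to −1.12). Lbr, which ties heterochromatin to the inner nuclear membrane, was counted higher at 184 against 497 CPM, log2 ratio 1.44 (1.397 to 1.47), and so was Tor1aip1 at 13.1 against 33.2 CPM, log2 ratio 1.34 (1.19 to 1.48). Tpr, Lbr, Tor1aip1, Zc3h11a and the Y complex gene Ahctf1 lie on chromosome 1, where the median ratio over genes averaging 5 CPM or more was 0.66. Of these Zc3h11a had the lowest ratio, at 0.31. Rangap1, Aaas, Poldip3, Sun2 and Eny2 lie on chromosome 15, where that median was −0.57. Of these Eny2 alone was higher in P42, with a ratio of 0.38.

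**Figure D5:**
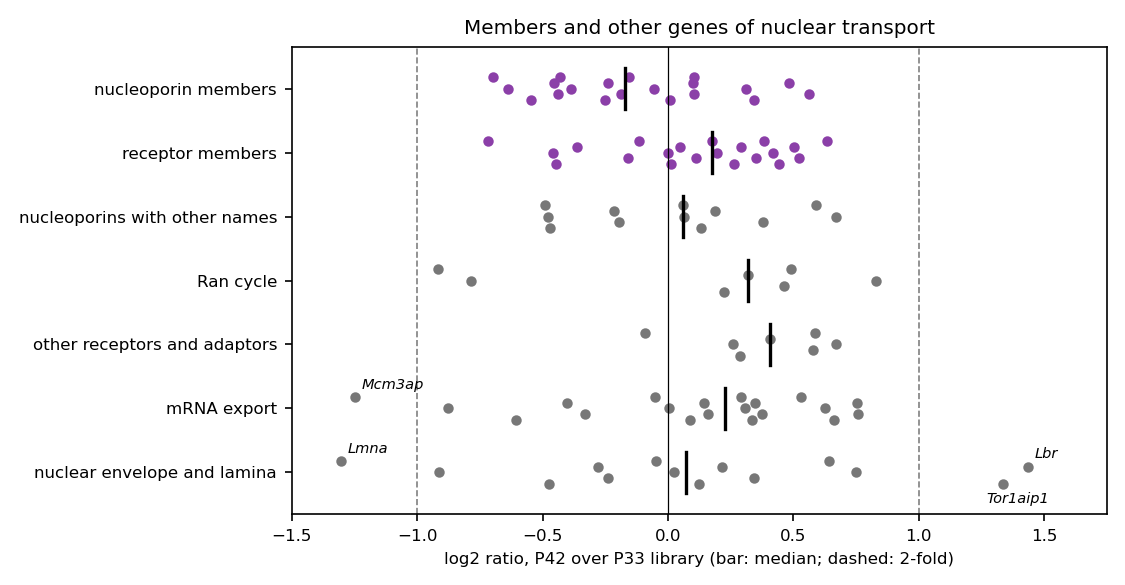
Log2 ratio of P42 over P33 for each gene averaging 1 CPM or more, for the 2 classes described here (purple) and 5 lists of other transport genes (grey), with the median as a bar. Only Mcm3ap, Lmna, Lbr and Tor1aip1 lie outside the dashed 2-fold lines.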

How the data were processed

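Polyadenylated RNA was measured in 2 libraries of 1 group. The deposited values are raw counts of reads for each Ensembl gene, as whole numbers. The tools STAR 2.4.2a and featureCounts 1.4.5-p1 and the build mm10 are named in the labels, per the submitters' processing notes. Annotation release, strand setting and the handling of multiply mapped reads: not given in the sources used here. Symbols came from GENCODE M21 (GRCm38, the same assembly), which named 42548 of 43629. Library sizes were scaled by TMM in edgeR 4.0.16 (R 4.3.3), giving factors of 1.050 and 0.952, so that 1 CPM stood for 42.2 and 37.8 counts. Log2 ratios used a prior count of 0.5, and counting intervals are exact Clopper-Pearson intervals at 95%. With 1 library per label no test was possible. The GC and length trend was removed by lowess with a span of 0.3 (statsmodels 0.14.6), and copies were searched with blastn 2.17.0. Merged exons pool all annotated transcripts of a gene, so RPKM is lower than with the longest transcript.

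On simulated Poisson counts for 13737 genes the comparison counted 97.0% of 67 genes changed 2.5-fold and 100% of 66 changed 4-fold. It counted 0% of 67 changed 1.5-fold and 0% of 13537 unchanged genes. The simulated counts had no spread beyond counting error, so they cannot show how often 2 real libraries give a call without a true change. The genes and lists were chosen with earlier results of these data known. Every one of the 42 genes was named, with the 2 of highest RPKM in each other list and each gene counted at 2-fold. Genes named as copies, as markers, as parts of the Y complex or for lying on chromosomes 1 and 15 are further to that. Rangap1, Ranbp3 and Nutf2 were named after their values were seen. The ratios were also computed with total counts, with DESeq2 1.42.0 size factors, with a prior count of 2, and with other folds and CPM minimums, and levels with transcript length and in single libraries. The copies, the minimum of 20 CPM and the removal of Nup35 or of chromosomes 1, 15 and X were chosen after seeing the data. The other computations used Python 3.11.15, numpy 2.4.6, pandas 2.3.3 and scipy 1.17.1.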

Additional observations from a re-analysis of the deposited data

How the results depend on the processing

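The number of genes detected was 41 in each library alone and with DESeq2 size factors or total counts, and 40 at a minimum of 5 or 10 CPM. No gene was counted higher or lower at 2-fold with either other scaling or with no CPM minimum. None was counted at 3-fold, at 5 CPM or without chromosomes 1, 15 and X either, but these settings can only remove genes. At 1.5-fold 1 gene was counted higher and 3 lower. With the GC and length trend removed 0 were higher and 1 lower, Nup62cl at −1.03. The median log2 ratio of 0.01 became −0.13 with total counts, which shift every ratio by −0.14, and lay between −0.01 and 0.05 under the other alternatives. The span of the scaffold levels, 7.43-fold, lay between 5.99 and 9.69 in the single libraries, was 9.01 with transcript length, and was 2.396 without Nup35, which had the lowest level. The sign turned for 7 of 42 genes with total counts, for 6 of 41 with the trend removed, and for 0 with DESeq2 size factors or a prior count of 2. No paired analysis was possible because the labels hold 1 group. Depth limits Kpna7, with 14 and 8 counts, and Nup210l, with 92 and 60.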

Other observations

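Short motifs were searched on both strands of the 40 RefSeq promoter windows of 300 bases matched to 33 of the genes, and in all 32851 windows. The CCAAT box (CCAAT) was in 55.0% of the windows against 37.4% of all windows, and the GC box (GGGCGG) in 62.5% against 35.7%. The E-box CACGTG was in 17.5% against 7.15%, for Ipo4, Ipo7, Nup188, Nup54, Nup93, Tnpo2 and Xpot. The ETS motif CCGGAAG was in 17.5% against 8.86%, and TATAAA in 4 of the 40 windows against 13.6%. The long motifs of NRF1 and YY1 were in 2 and 4 of the 40 windows, against 0.971% and 0.633% of all windows. Windows of the same gene overlap in part, GC-rich motifs are more frequent in CpG-rich windows, and a match is a description of the letters only.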
